A study of Mus musculus with 18 samples.

Results

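Collagen transcripts were followed in mouse hepatocytes that lacked or carried the aryl hydrocarbon receptor (AhR), a ligand-activated transcription factor, after exposure to an AhR ligand or after loss of adhesion. The members were every probe whose annotated gene symbol has the form of a collagen chain (Col, a number, a and a number). This gave 41 of the 19057 genes named on the array, with 91 of its 45281 probes, split into 11 fibrillar genes (types 1, 2, 3, 5, 11, 24 and 27), 8 basement membrane genes (types 4, 15 and 18) and 22 others. Of the 41 genes, 23 passed the filter on low signal and were tested. After 8 h of suspension Col4a1, Col4a2 and Col7a1 rose and Col18a1 and Col8a2 fell in both lines, with 5 of 23 collagens called in the reconstituted line (24.1% of all genes tested) and 6 in the AhR-null line (22.6%). A fit that pairs arrays by replicate number called 13 (48.6%) and 11 (47.1%), adding Col1a1, Col1a2, Col4a5, Col6a1 and Col8a1 as lower in both lines. No collagen passed the test for the ligand in either line.

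RNA was measured on 18 Illumina mouse bead arrays, 3 for each of 6 groups. All cells derived from hepatocytes of AhR-/- mice of strain C57BL/6N, transformed with the tsA209 mutant of SV40, and all stably expressed TetR (the tetracycline repressor, from pLenti6/TR). The AhR-null line carried TetR alone, and the reconstituted line carried TetR together with HisMyc epitope tagged mouse AhR. Cells were grown at 34 °C and 5% CO2 in 10% fetal calf serum with 100 nM dexamethasone. Confluent cells of each line were given 0.1% DMSO, were given 10 µM YH439, an AhR ligand, or were held in suspension, each for 8 h. Suspended cells had been lifted with 0.05% trypsin and placed in 1.68% methylcellulose, so loss of adhesion, trypsin and methylcellulose cannot be told apart. The labels record DMSO for the control groups alone. One line of each kind was used, so the receptor and any other difference between the lines cannot be told apart. The replicates are labelled biological triplicates without a statement that they were separate cultures, so p-values reflect the spread among these arrays, which may be technical.

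Collagens are built from chains that wind into a triple helix along repeats of glycine and 2 further residues, many of them hydroxylated prolines. Fibrillar collagens are trimmed outside the cell and assemble into banded fibrils that give tissues tensile strength. Type IV collagen forms the network of basement membranes, and types XV and XVIII are proteoglycan collagens of basement membrane zones. In liver most fibrillar collagen is made by stellate cells and fibroblasts, and only low amounts by mature hepatocytes.

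Between 42% and 44.6% of all probes were detected on each array (detection p-value under 0.05). The median signal ran from 6.03 to 11.9. The 6 dimmest arrays, at 7.19 or less against 8.78 or more for the other 12, were replicate 3 of each AhR-null group and replicate 1 of each reconstituted group, and results that rest on them are given with and without them. The probe for Ahr passed detection on 1 array, of AhR-null cells with DMSO. Whether it lies in the introduced sequence is not known, and it checks neither line. Cyp1b1, a textbook AhR target, was not called for YH439 against DMSO in the reconstituted line (log2 1.04 ± 0.27, limma adjusted p = 0.391) or in the AhR-null line (-0.08 ± 0.27, 1). Its reconstituted arrays read 12.61, 12.79 and 12.87 with YH439 and 11.56, 11.73 and 11.87 with DMSO, without overlap. In suspension Cyp1b1 fell in the AhR-null line (-1.10 ± 0.27, 0.00759) and was not called in the reconstituted line (0.42 ± 0.27, 0.304). Between the lines it was higher in the reconstituted line with YH439 (1.34 ± 0.27, 0.0168) and in suspension (1.74 ± 0.27, 0.00208), and not called with DMSO (0.22 ± 0.27, 0.768). Of 18 hepatocyte markers 3 were detected on all arrays (Ahsg, Trf and Ass1) and 11 on none, including Alb for albumin and the urea cycle gene Cps1. Among 21 markers of mesenchymal and stellate cells, 15 had a probe detected on all arrays (Vim, Pdgfra, Pdgfrb and Thy1 among them) and 4 on none. The other lists were detected on all arrays for 4 of 9 bile duct and epithelial, 2 of 9 macrophage, 0 of 10 endothelial and 1 of 7 chondrocyte markers, and on none for 2, 6, 4 and 4. Most hepatocyte markers, though not all, were thus not detected in cells labelled hepatocytes. In bulk RNA such as this, fewer cells of a type and less RNA per cell cannot be told apart.

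The collagens detected on all arrays were of fibrillar types I, III and V, basement membranes, and short-chain, beaded-filament, anchoring fibril and fibril-associated types. Of the 41 genes, 16 had a probe detected on all 18 arrays. The fibrillar ones were Col1a1, Col1a2, Col3a1 and Col5a1 (4 of 11), and the basement membrane ones Col4a1, Col4a2, Col4a5, Col4a6, Col15a1 and Col18a1 (6 of 8). Among the others, 6 of 22 were detected throughout: Col6a1 and Col6a2 of the beaded filaments, Col7a1 of the anchoring fibrils, the short chains Col8a1 and Col8a2, and Col16a1, which associates with fibrils. A further 7 genes were detected on 3 to 17 arrays (Col2a1, Col5a3, Col9a1, Col11a2, Col17a1, Col25a1 and Col27a1). On 1 array each, 3 were detected (Col9a2, Col11a1 and Col14a1).

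The remaining 15 genes were detected on no array. They were Col4a3 and Col4a4, the chains that pair with Col4a5 in the glomerular basement membrane, the fibrillar Col5a2 and Col24a1, and Col6a4, Col6a5, Col6a6, Col9a3, Col10a1, Col13a1, Col19a1, Col22a1, Col23a1, Col26a1 and Col28a1. None of the 5 probes for Col5a2, whose chain joins that of Col5a1 in type V collagen, was detected. Of the 91 collagen probes 27.5% passed detection on every array and 53.8% on no array, against 35.2% and 43.2% of all probes. Genes detected on all 3 arrays of a group numbered 16, 16 and 19 in the AhR-null line with DMSO, with YH439 and in suspension, and 18, 17 and 19 in the reconstituted line. At a detection p-value under 0.01 the numbers were 16, 16 and 16, and 16, 15 and 16. The set of detected collagens was thus nearly the same in the 6 groups under the stricter rule.

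**Figure D1:**
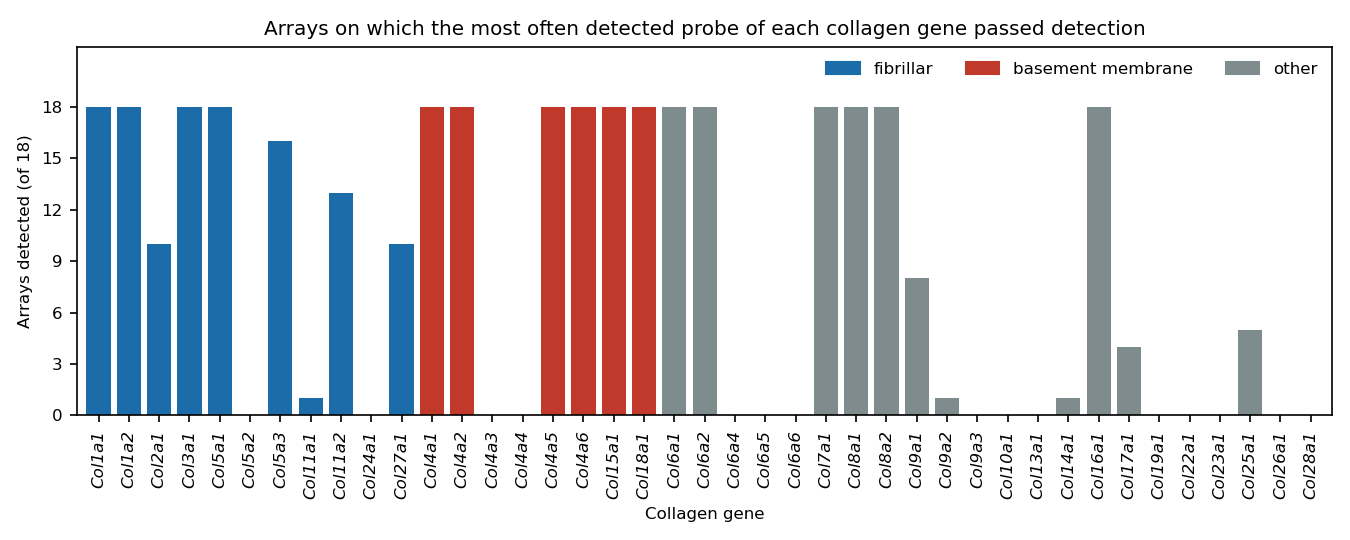
Number of the 18 arrays (vertical axis) on which the most often detected probe of each of the 41 collagen genes passed a detection p-value of 0.05, coloured by class. The 16 genes at 18 arrays include 6 of the 8 basement membrane genes, and 15 genes have no bar because they were detected on no array.

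Suspension against DMSO compared the whole suspension treatment, trypsin and methylcellulose included, with the DMSO control in each line. In the reconstituted line 5 of the 23 tested collagens passed the threshold (limma, adjusted p under 0.05 over 11149 genes), against 24.1% of all genes tested. Col4a1, Col4a2 and Col7a1 rose (10.7% of all genes rose) and Col18a1 and Col8a2 fell (13.4% fell). In the AhR-null line 6 passed, against 22.6% of all genes: the same 5 genes and Col27a1, with 4 higher (10.8% of all genes) and 2 lower (11.9%). The share of collagens called was thus near the share over all genes in both lines. Within a line, arrays with the same replicate number tended to deviate together, though AhR-null replicates 1 and 2 also deviated with each other. A fit with that number as a block called 13 collagens in the reconstituted line and 11 in the AhR-null line. It called 48.6% and 47.1% of all genes. By direction the block called 21.2% of all genes higher and 27.4% lower in the reconstituted line, and 21.1% and 26% in the AhR-null line. Without the 6 dimmest arrays the counts were 13 and 8, with 38.5% and 37.1% of all genes called. Over the 16 genes detected on all arrays the median log2 change was -0.25 in the reconstituted and -0.15 in the AhR-null line, beside -0.05 and -0.04 over the 8793 genes so detected.

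**Figure D2:**
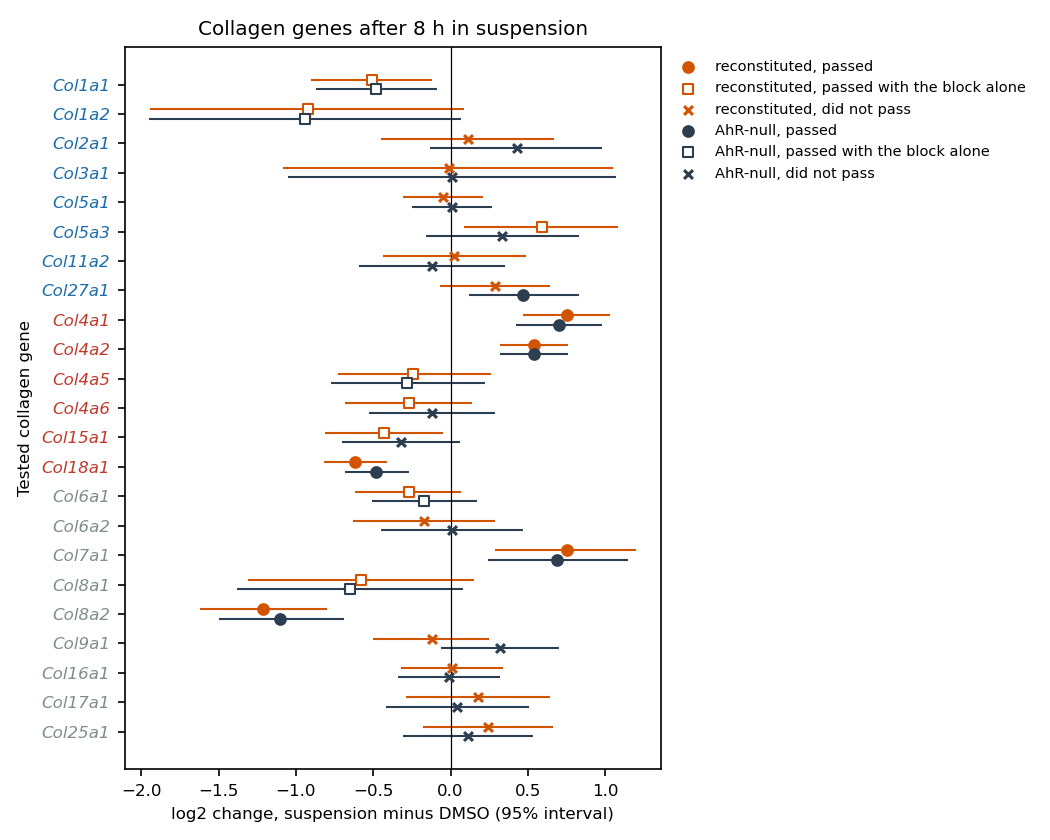
Log2 change with its 95% interval after 8 h in suspension against DMSO for the 23 tested collagens, in the reconstituted (orange) and AhR-null (dark) lines; gene names are coloured fibrillar blue, basement membrane red and others grey. Col4a1, Col4a2 and Col7a1 lie right of 0 and Col18a1 and Col8a2 left of 0 in both lines, and open squares mark genes called by the fit with a replicate block alone.

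Col4a1 and Col4a2 encode the chains of the most widespread type IV collagen, the network former of basement membranes. Their start sites lie 21 bases apart on opposite strands of chromosome 8, so that the windows taken around each start (250 bases before to 50 after, RefSeq, build GRCm38.p6) share 78 bases. The windows are printed because both genes passed the test in both lines and share this stretch. Capitals mark matches, on either strand, to the motifs spelled out after the sequences. Each window runs 5′ to 3′ on the strand of its gene, Col4a1 at chr8:11312777-11313076 on the minus strand and Col4a2 at chr8:11312555-11312854 on the plus strand.
Col4a1: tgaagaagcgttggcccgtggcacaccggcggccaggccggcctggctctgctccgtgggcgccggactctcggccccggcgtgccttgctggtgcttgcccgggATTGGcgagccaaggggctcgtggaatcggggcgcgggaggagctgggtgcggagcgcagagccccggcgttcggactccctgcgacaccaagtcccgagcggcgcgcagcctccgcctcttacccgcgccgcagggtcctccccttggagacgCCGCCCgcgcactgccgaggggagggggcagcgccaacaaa
Col4a2: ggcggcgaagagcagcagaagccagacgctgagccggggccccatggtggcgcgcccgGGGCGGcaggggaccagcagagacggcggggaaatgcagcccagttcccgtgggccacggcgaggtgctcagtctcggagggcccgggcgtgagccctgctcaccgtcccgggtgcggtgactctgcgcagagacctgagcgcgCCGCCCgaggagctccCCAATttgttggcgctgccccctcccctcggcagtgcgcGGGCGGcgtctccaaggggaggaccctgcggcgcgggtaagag
Each motif was searched on both strands. The word CCAAT was held by 11 of the 21 tested collagens with a window and by 37.4% of 32851 mouse promoter windows. The GC box word GGGCGG was held by 16 of the 21 and by 35.7% of all windows. The word TATAAA was held by 3 and by 13.6% of all windows. The word ACGTG was held by 3 and by 19.6% of all windows. The last pair of motifs has no match in either printed window. A collagen gene counted if any of its windows matched (24 windows for 21 genes), while the shares over all promoters are per window. The GGGCGG match just after each start site of Col4a1 and Col4a2 is the same shared stretch, read on opposite strands. These are counts of letters and not of bound sites.

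The log2 intensity of Col4a1 (probe ILMN_2621643) was 12.87, 12.98 and 13.18 with DMSO and 13.49, 13.65 and 14.00 in suspension in the AhR-null line. The reconstituted arrays read 13.01, 12.99 and 13.08 with DMSO and 13.76, 13.82 and 13.74 in suspension. Every suspended array lay above every DMSO array of its line. Col4a1 rose by 0.75 ± 0.13 (SE, log2; 1.68-fold, adjusted p = 0.000536) in the reconstituted and by 0.70 ± 0.13 (1.63-fold, 0.000971) in the AhR-null line.

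Col4a2 (ILMN_2822579) moved with it. Its AhR-null arrays read 11.50, 11.38 and 11.60 with DMSO and 11.89, 12.02 and 12.20 in suspension. In the reconstituted line they read 11.54, 11.63 and 11.60 with DMSO and 12.10, 12.11 and 12.17 in suspension, again without overlap. The log2 rise was 0.54 ± 0.10 in both lines (1.45-fold, adjusted p = 0.00114, and 1.46-fold, 0.0012).

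Col4a5 and Col4a6, the other type IV chains detected, also lie head to head, on chromosome X with start sites 1343 bases apart and windows that do not overlap. Neither was called higher. Col4a5 stood at a log2 change of -0.24 ± 0.23 in the reconstituted (adjusted p = 0.517; 0.038 with the replicate block) and -0.28 ± 0.23 in the AhR-null line (0.438; 0.0181 with the block). Col4a6 stood at -0.27 ± 0.19 (0.339; 0.00873 with the block) and -0.12 ± 0.19 (0.722; 0.205 with the block). Other probes of both genes were called lower in the reconstituted line without the block, in a fit over all kept probes: ILMN_2734755 of Col4a5 gave -0.67 ± 0.17 (adjusted p = 0.0092) and ILMN_1252184 of Col4a6 gave -0.39 ± 0.12 (0.0261). In the AhR-null line they gave -0.36 ± 0.17 (0.151) and -0.27 ± 0.12 (0.128).

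Col18a1 encodes the type XVIII chain, whose C-terminal fragment is endostatin, and it fell. The arrays (ILMN_2735184) read 10.09, 10.05 and 10.18 with DMSO and 9.75, 9.47 and 9.68 in suspension in the AhR-null line. They read 10.15, 10.17 and 10.21, and 9.68, 9.57 and 9.44, in the reconstituted line. No suspended array reached a DMSO array. The change was -0.62 ± 0.10 (1.53-fold lower, adjusted p = 0.000257) in the reconstituted and -0.48 ± 0.10 (1.39-fold lower, 0.00215) in the AhR-null line, and a second probe (ILMN_2937542) gave -0.54 ± 0.15 and -0.34 ± 0.15. Col15a1, the related type XV chain, stood at -0.43 ± 0.17 in the reconstituted line (adjusted p = 0.0889; 0.0322 with the block) and -0.32 ± 0.17 in the AhR-null line (0.211; 0.0968 with the block).

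**Figure D3:**
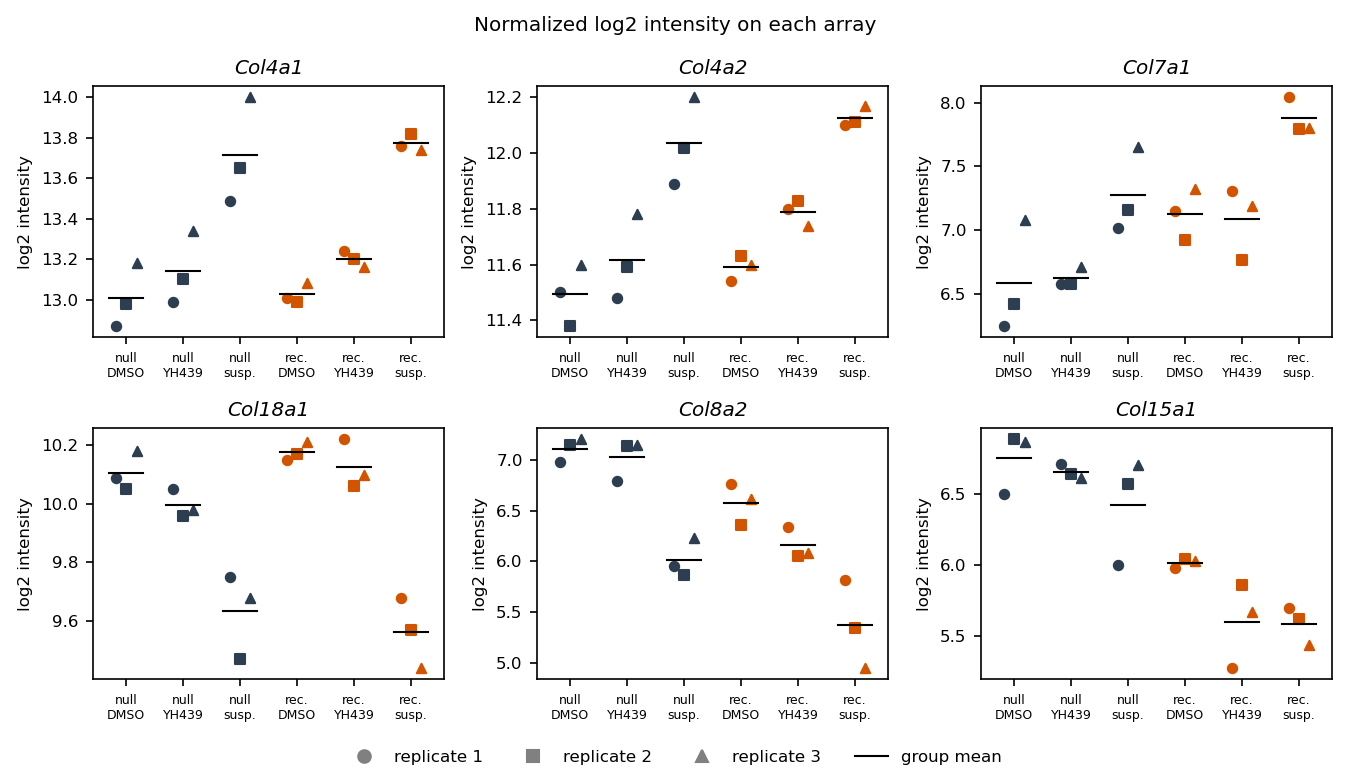
Normalized log2 intensity (vertical axis, scale differs by panel) of 6 collagens on each of the 18 arrays, with the marker shape giving the replicate number and the bar the group mean. Suspended arrays lie above DMSO arrays for Col4a1 and Col4a2 and below them for Col18a1 and Col8a2 in both lines, and Col15a1 lies lower in the reconstituted line.

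Among the fibrillar genes 0 of 8 passed in the reconstituted line (24.1% of all genes) and 1 of 8 in the AhR-null line (22.6%). With the replicate block 3 of 8 passed in each line, where 48.6% and 47.1% of all genes passed. Col1a1 and Col1a2, which encode the chains of type I collagen, were called lower in both lines by the blocked fit. Col1a2 (ILMN_1253806) read 8.69, 8.73 and 7.30 with DMSO and 7.91, 7.80 and 6.21 in suspension in the AhR-null line. The reconstituted arrays read 7.90, 7.52 and 7.75, and 6.80, 6.37 and 7.23. The AhR-null groups overlap because replicate 3 was low in both, while each suspended array lay below the DMSO array of its own number, by 0.52 to 1.15 log2 units in all 6 pairs. The log2 change was -0.92 ± 0.46 (adjusted p = 0.175; ± 0.12 and 8.36e-05 with the block) in the reconstituted and -0.94 ± 0.46 (0.171; ± 0.12 and 8.14e-05 with the block) in the AhR-null line.

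Col1a1 (ILMN_2687872) read 11.11, 11.06 and 11.21 with DMSO and 10.74, 10.91 and 10.28 in suspension in the AhR-null line. The reconstituted arrays read 11.05, 11.49 and 11.43, and 10.54, 10.99 and 10.92. The groups did not overlap in either line. The change was -0.51 ± 0.18 (adjusted p = 0.0508; 0.00457 with the block) and -0.48 ± 0.18 (0.0673; 0.00662 with the block) in the reconstituted and AhR-null lines.

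Col3a1 and Col5a1, which join type I collagen in mixed fibrils, did not pass in any of these fits. Col5a1 stood at -0.05 in the reconstituted line (95% interval -0.31 to 0.21) and 0.01 in the AhR-null line (-0.25 to 0.27). For Col3a1 the values were -0.01 (-1.08 to 1.05) and 0.01 (-1.05 to 1.07), with intervals as wide as the Col3a1 arrays are spread. Col27a1 (ILMN_2687324) was called higher in the AhR-null line alone, by 0.47 ± 0.16 (adjusted p = 0.0471). It was detected on 1 of 3 AhR-null DMSO arrays and all 3 suspended ones, reading 4.93, 5.15 and 4.85 and then 5.30, 5.26 and 5.80. These values lie near background, and the call was lost without the 6 dimmest arrays (0.24, adjusted p = 0.203) and without DMSO replicate 1 (0.45, 0.118), DMSO replicate 3 (0.41, 0.137) or suspension replicate 3 (0.30, 0.182). Its reconstituted change was 0.29 ± 0.16, and the lines' difference did not pass (-0.19, interval -0.69 to 0.31). Col5a3 stood at 0.59 ± 0.23 in the reconstituted line (adjusted p = 0.0756; 0.0159 with the block) and at 0.33 ± 0.23 in the AhR-null line (0.344; 0.145 with the block).

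Of the 9 other tested collagens, Col7a1 rose and Col8a2 fell. Col7a1, the anchoring fibril chain that ties basement membrane to stroma, read (ILMN_2901944) 6.25, 6.42 and 7.08 with DMSO and 7.02, 7.16 and 7.65 in suspension in the AhR-null line. In the reconstituted line it read 7.15, 6.92 and 7.32, and 8.04, 7.79 and 7.80. The reconstituted groups did not overlap, and in the AhR-null line suspended replicate 1 lay just under DMSO replicate 3. The rise was 0.75 ± 0.21 (1.68-fold, adjusted p = 0.0161) and 0.69 ± 0.21 (1.62-fold, 0.0253).

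The Col7a1 calls were lost when any 1 of several arrays was left out, with log2 rises of 0.51 to 0.67 in those fits. In the reconstituted line the adjusted p was 0.0744 without DMSO replicate 2 and 0.0651 without suspension replicate 1. In the AhR-null line it was 0.119 and 0.0936 without DMSO replicate 1 or 2, and 0.0979 without suspension replicate 3. The blocked fit gave 0.000395 and 0.000725.

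Col8a2, a short chain of the hexagonal network of Descemet's membrane, had the largest log2 change among the 23 tested collagens in both lines. The AhR-null arrays (ILMN_2688966) read 6.98, 7.15 and 7.20 with DMSO and 5.95, 5.86 and 6.23 in suspension. The reconstituted arrays read 6.76, 6.36 and 6.61, and 5.82, 5.34 and 4.95, and in neither line did the groups overlap. The fall was 2.31-fold in the reconstituted (log2 -1.21 ± 0.19, adjusted p = 0.000249) and 2.14-fold in the AhR-null line (-1.10 ± 0.19, 0.000608). The size depended on the background: without further background correction the changes were -0.75 and -0.78, and with the authors' processed values -1.59 and -1.28, all still called.

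Its partner chain Col8a1 stood at -0.58 ± 0.33 (adjusted p = 0.241; ± 0.08 and 0.000123 with the block) and -0.65 ± 0.33 (0.189; 5.9e-05 with the block). Each suspended array lay 0.45 to 0.88 log2 units below the DMSO array of its number. Of type VI collagen, Col6a1 was called lower at -0.27 ± 0.06 in the reconstituted (0.00322 with the block) and -0.17 ± 0.06 in the AhR-null line (0.038), but neither was called without it (0.238 and 0.495). Col6a2 passed neither with nor without the block, at -0.17 (interval -0.63 to 0.29) and 0.01 (-0.45 to 0.47), and its second probe (ILMN_1258759) gave -0.36 ± 0.14 and -0.17 ± 0.14. Whether the chains differ was not tested. Col16a1 stood at 0.01 (-0.32 to 0.34) and -0.01 (-0.34 to 0.32). The sparsely detected Col2a1, Col9a1, Col11a2, Col17a1 and Col25a1 passed in neither fit, with log2 changes from -0.12 to 0.24 in the reconstituted line and from -0.12 to 0.43 in the AhR-null line.

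The response to suspension was not shown to differ between the lines for any collagen. The test of the difference (reconstituted minus AhR-null) called 0 of 23 collagens and 0.00897% of all genes, and 0 collagens with the replicate block, where 0.17% of all genes were called. At an unadjusted p under 0.05 it also called 0. The difference was 0.05 for Col4a1 (95% interval -0.35 to 0.44), 0.00 for Col4a2 (-0.32 to 0.31), 0.05 for Col7a1 (-0.59 to 0.70), -0.14 for Col18a1 (-0.44 to 0.16) and -0.11 for Col8a2 (-0.69 to 0.47).

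Markers of other cell types moved with suspension. Of 7 tested bile duct and epithelial markers 3 rose in each line (10.7% and 10.8% of all genes rose), Krt18, Krt8 and Sox9, and the summed level of the list ran from 2227 to 2867 with DMSO and from 5237 to 8349 in suspension in the AhR-null line, and from 2427 to 2753 and 6985 to 7658 in the reconstituted line. Epcam and Cftr of that list were detected on no array. Of 16 tested mesenchymal markers 3 rose and 3 fell in each line, with a summed level of 36610 to 38390 and 35210 to 36040 in the AhR-null line and 31170 to 31690 and 31580 to 34090 in the reconstituted line. Of 3 tested macrophage markers Csf1r rose in both lines (1.35 ± 0.14 and 1.39 ± 0.14), while Adgre1, Ptprc and 4 others of that list were detected on no array. The summed hepatocyte level ran from 1228 to 1337 with DMSO and from 968.5 to 1038 in suspension in the reconstituted line, where 1 of 7 tested markers fell (Hnf4a, -0.44 ± 0.14) against 13.4% of all genes, and from 948.8 to 1170 and 826 to 1171 in the AhR-null line, where none was called. The summed chondrocyte level ran from 340.9 to 457.4 and 247.6 to 296 in the reconstituted line, where 1 of 2 tested markers fell (Sox5, -0.54 ± 0.19), and from 419.9 to 568.5 and 412.9 to 551.1 in the AhR-null line. With the replicate block 4 mesenchymal markers rose and 5 fell in the reconstituted line, and 3 rose and 9 fell in the AhR-null line. Of hepatocyte markers the block called 3 lower in the reconstituted and 1 higher in the AhR-null line. Bile duct and epithelial calls were 4 and 3, all higher. Over all genes the block called 21.2% higher and 27.4% lower in the reconstituted line, and 21.1% and 26% in the AhR-null line. The part of these markers in the collagen changes was not tested.

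YH439 asked what a ligand of the receptor did to the same genes. No collagen was called in either line. In the reconstituted line the fit called 0 of 23 collagens and 0.135% of all genes, and 0 collagens with the replicate block, where 0.834% of all genes were called. At an unadjusted p under 0.05 there were 2 collagens, Col15a1 (-0.41 ± 0.17, unadjusted p = 0.0315) and Col8a2 (-0.42 ± 0.19, 0.0388), with an adjusted p of 1 for both. With YH439 against DMSO, Col15a1 read 5.28, 5.86 and 5.67 against 5.98, 6.04 and 6.03, and Col8a2 read 6.34, 6.05 and 6.08 against 6.76, 6.36 and 6.61. Neither overlapped, but the same held for Col4a1, Col4a2 and Col6a1, which stood higher with YH439, and for Col11a2, which stood lower. The share of all genes without overlap between groups was not counted in any comparison.

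The AhR-null line, which lacks the receptor, had 0 collagens called among 0% of all genes, 0 with the block (0.0179% of all genes) and 0 at an unadjusted p under 0.05. The difference between the lines called 0 collagens and 0.0269% of all genes, 0 with the block (0.161%) and 0 at an unadjusted p under 0.05. The type IV chains that rose in suspension stood in the reconstituted line at 0.18 ± 0.13 for Col4a1 (95% interval -0.10 to 0.45) and 0.20 ± 0.10 for Col4a2 (-0.02 to 0.42) with YH439. In the AhR-null line the values were 0.13 ± 0.13 (-0.14 to 0.41) and 0.12 ± 0.10 (-0.10 to 0.35), and the lines differed by 0.04 (-0.35 to 0.43) and 0.08 (-0.24 to 0.39). The reconstituted arrays with YH439 lay above the DMSO arrays, at 13.24, 13.20 and 13.16 for Col4a1 and 11.80, 11.83 and 11.74 for Col4a2. The median log2 change over the 23 tested collagens was 0.01 in the reconstituted and -0.04 in the AhR-null line, beside 0.00 over all genes in both.

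Comparing the reconstituted with the AhR-null line within each treatment set the receptor-carrying line beside the line without it. Few collagens were called with all 18 arrays. With DMSO 0 of 23 passed, against 0.547% of all genes, and 6 had an unadjusted p under 0.05. With YH439 Col15a1 and Col8a2 were lower in the reconstituted line, 2 collagens against 1.44% of all genes (0.816% lower), and in suspension Col15a1 alone was lower, against 1.78% of all genes (1.04% lower). The 3 comparisons use different arrays, but they share the lines and the estimate of spread, and some replicate deviations recur in each treatment. They are therefore not independent.

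Col15a1 (ILMN_1222111) read 6.50, 6.88 and 6.86 with DMSO, 6.71, 6.64 and 6.61 with YH439 and 6.00, 6.57 and 6.70 in suspension in the AhR-null line. The reconstituted arrays read 5.98, 6.04 and 6.03, then 5.28, 5.86 and 5.67, then 5.70, 5.62 and 5.44. No reconstituted array reached an AhR-null array of the same treatment. The difference was -0.73 ± 0.17 with DMSO (adjusted p = 0.0931), -1.05 ± 0.17 with YH439 (2.07-fold lower, 0.0036) and -0.84 ± 0.17 in suspension (1.79-fold lower, 0.0208). The suspension call was lost without AhR-null replicate 2 (0.0934) or 3 (0.057) and without reconstituted replicate 2 (0.0683) or 3 (0.12).

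Col8a2 did not overlap between the lines in any treatment either. It differed by -0.53 ± 0.19 with DMSO (adjusted p = 0.375), -0.88 ± 0.19 with YH439 (1.84-fold lower, 0.0262) and -0.64 ± 0.19 in suspension (0.108). The YH439 arrays read 6.79, 7.14 and 7.15 in the AhR-null and 6.34, 6.05 and 6.08 in the reconstituted line. That call was lost without AhR-null replicate 2 (0.121) or 3 (0.0733) and without reconstituted replicate 2 (0.13) or 3 (0.127).

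Several collagens split by replicate number in the AhR-null line. Col3a1 (ILMN_1258629) read 12.53, 12.61 and 11.09 with DMSO, 12.62, 12.74 and 11.07 with YH439 and 12.42, 12.73 and 11.11 in suspension. Replicate 3 lay 1.46 to 1.61 log2 units below the mean of the other replicates in each treatment. The reconstituted arrays read 10.79, 10.99 and 11.33, then 11.19, 11.09 and 11.68, then 10.90, 10.69 and 11.46, so that AhR-null replicate 3 lay among the reconstituted arrays and the other AhR-null arrays above them.

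Col1a2 and Col8a1 split in the same way. For Col1a2 replicate 3 lay 1.41, 1.21 and 1.64 below the others with DMSO, with YH439 and in suspension. For Col8a1 (ILMN_2503553), which read 11.36, 11.16 and 10.45 with DMSO, 11.16, 11.15 and 9.97 with YH439 and 10.74, 10.70 and 9.57 in suspension, it lay 0.81, 1.19 and 1.15 below. Col6a2 and Col6a1 were higher on replicate 3, by 0.44, 0.61 and 0.71 and by 0.34, 0.46 and 0.52.

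Over all genes 435 of 11149 (3.9%) lay 1 log2 unit or more lower on AhR-null replicate 3 in all 3 treatments, Col1a2 and Col3a1 among them. None did so on replicate 1 of the reconstituted line, the other dim set. A second Col3a1 probe (ILMN_2683958) showed no such split: it read 8.78, 8.49 and 8.77 on replicate 3 and 8.27 to 8.59 on the other AhR-null arrays. The part of array brightness in the split was not tested.

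**Figure D4:**
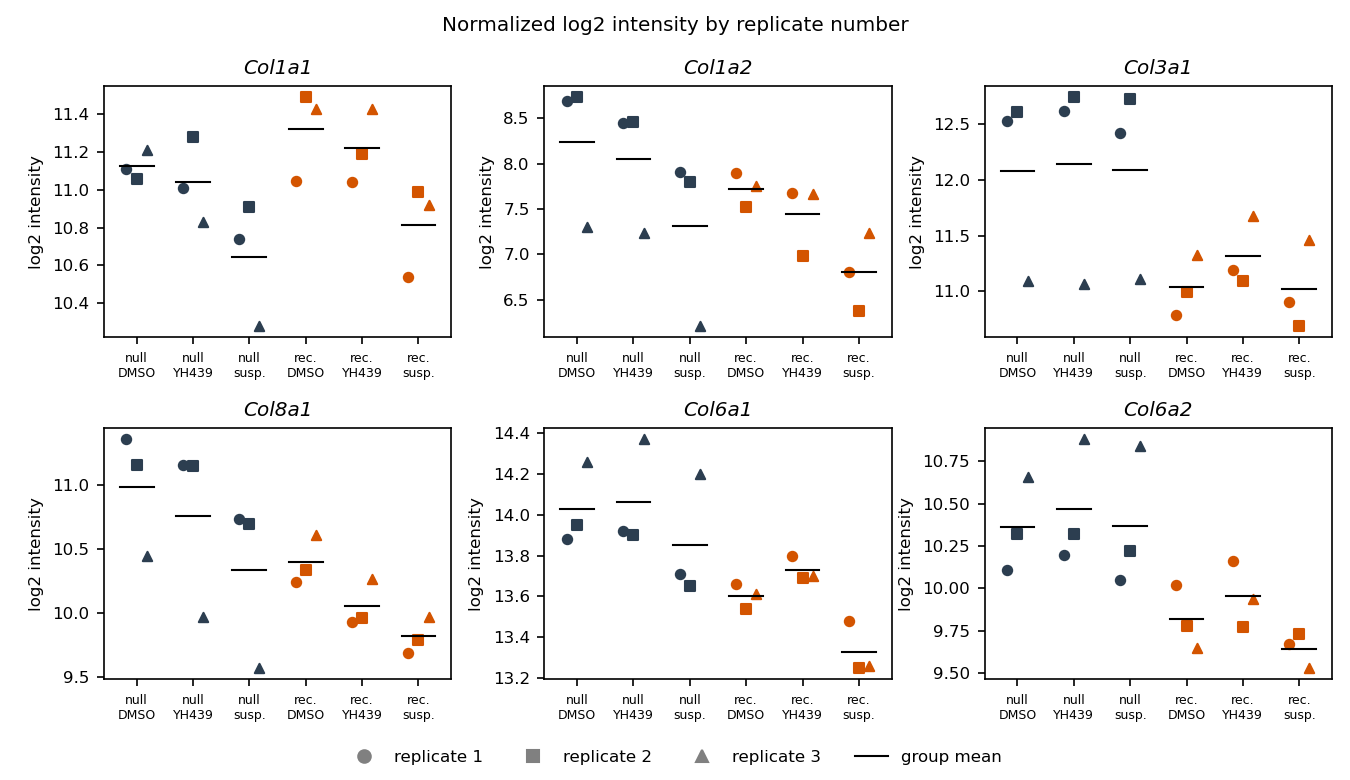
Normalized log2 intensity (vertical axis, scale differs by panel) of 6 collagens on each of the 18 arrays, with marker shapes for replicate numbers and bars for group means. AhR-null replicate 3 (dark triangles) lies below the other AhR-null arrays for Col1a2, Col3a1 and Col8a1 and above them for Col6a1 and Col6a2.

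Leaving out the 6 dimmest arrays left 2 arrays per group and removed AhR-null replicate 3, which lay apart for Col1a2, Col3a1 and Col8a1. More collagens were then called between the lines, as were more of all genes (0.547%, 1.44% and 1.78% with all arrays). The fit called 10 of 23 with DMSO (2 higher and 8 lower), 8 with YH439 (all lower) and 10 in suspension (1 higher and 9 lower), while 24.3%, 24.9% and 25.6% of all genes were called. By direction 13.4%, 13.6% and 13.7% of all genes were higher and 10.9%, 11.2% and 11.8% lower. Col1a2, Col3a1, Col6a2, Col8a1, Col8a2, Col15a1 and Col16a1 were lower in the reconstituted line in all 3 treatments. The share of all genes called lower in all 3 was not counted.

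Col3a1 then differed by -1.42 ± 0.26, -1.30 ± 0.26 and -1.50 ± 0.26 with DMSO, with YH439 and in suspension (adjusted p = 0.00783, 0.00941 and 0.00513). With all arrays its values were -1.04 ± 0.49, -0.82 ± 0.49 and -1.07 ± 0.49, and the second probe gave -0.26 ± 0.14, -0.05 ± 0.14 and -0.28 ± 0.14. Col1a2 differed by -1.08, -1.14 and -1.05 without the dimmest arrays and by -0.52, -0.61 and -0.51 with all. For Col8a1 the values were -0.78, -1.04 and -0.84 without them and -0.59, -0.71 and -0.52 with all.

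Col7a1 and Col1a1 ran the other way. Col7a1 was higher in the reconstituted line without the dimmest arrays by 0.78 ± 0.16 with DMSO (adjusted p = 0.01) and 0.71 ± 0.16 in suspension (0.0125), and Col1a1 by 0.37 ± 0.11 with DMSO (0.0416). In that fit the type I chains stood on opposite sides with DMSO, Col1a1 higher and Col1a2 lower. With all arrays Col7a1, Col1a1 and Col1a2 were called in no treatment. Col1a1 with DMSO then overlapped between the lines, at 11.05 to 11.49 in the reconstituted and 11.06 to 11.21 in the AhR-null line. Col4a1 and Col4a2 were called in no treatment, with or without the dimmest arrays.

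**Figure D5:**
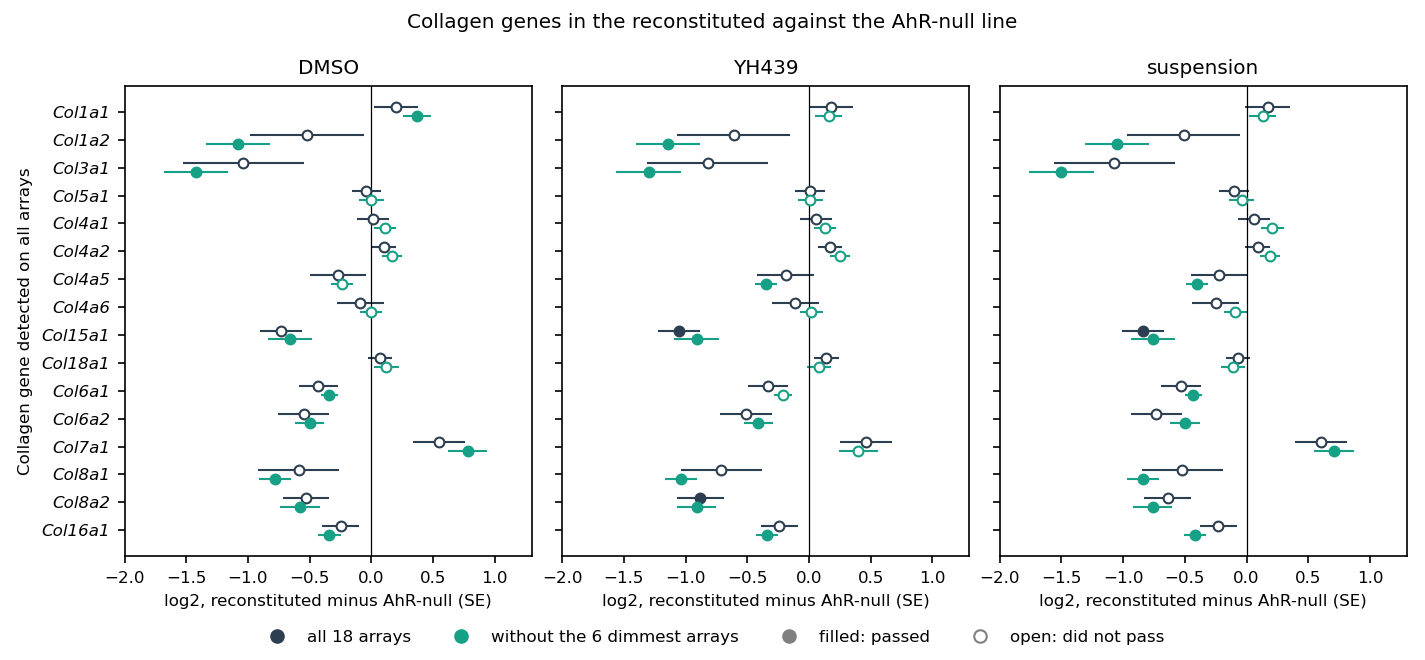
Log2 difference between the reconstituted and the AhR-null line (horizontal axis, bars are standard errors) for the 16 collagens detected on all arrays, with DMSO, with YH439 and in suspension, from all 18 arrays (dark) and without the 6 dimmest (green). Filled points passed an adjusted p of 0.05. Col1a2, Col3a1, Col6a2, Col8a1, Col8a2, Col15a1 and Col16a1 pass in all 3 treatments only without the dimmest arrays.

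The summed level of the 16 tested mesenchymal markers was also lower in the reconstituted line, at 31170 to 31690, 27430 to 28540 and 31580 to 34090 in the reconstituted line with DMSO, with YH439 and in suspension, against 36610 to 38390, 34490 to 38100 and 35210 to 36040 in the AhR-null line. Pdgfra, a receptor of fibroblasts, and Snai2, a transcription factor of the mesenchymal state, were called lower in the reconstituted line in each treatment. No mesenchymal marker was called higher, and 3, 2 and 2 of the 16 were called lower, against 0.457%, 0.816% and 1.04% of all genes. The sum weighs bright genes most, and the list as a whole did not move 1 way. Of the 16 log2 differences, 8 were positive and 8 negative with DMSO, 6 and 10 with YH439, and 8 and 8 in suspension. Of other lists, Krt18 was lower with YH439 (-0.83 ± 0.18), and Ahsg (-0.95 ± 0.22) and Sox5 (-0.79 ± 0.19) were lower in suspension. Their part in the line differences of the collagens was not tested.

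Genes that make, trim, bind and sense collagen were read from 4 lists. The hydroxylases, folding and export factors held 21 tested genes, of which 3 rose and 6 fell in suspension in the reconstituted line and 4 rose and 6 fell in the AhR-null line. Over all genes tested, 10.7% rose and 13.4% fell in the reconstituted line and 10.8% and 11.9% in the AhR-null line, and with the block 21.2% and 27.4%, and 21.1% and 26%. Of the catalytic subunits of the prolyl 4-hydroxylase that stabilises the triple helix, P4ha1 and P4ha2 rose and P4ha3 fell. P4ha1 ran from 8.10 to 8.21 with DMSO and from 9.19 to 9.53 in suspension in the reconstituted line, and from 8.00 to 8.28 and 9.40 to 9.57 in the AhR-null line. It rose 2.3-fold (log2 1.20 ± 0.11, adjusted p = 1.71e-06) and 2.57-fold (1.36 ± 0.11, 4.89e-07), and P4ha2 rose by 1.08 ± 0.10 and 1.07 ± 0.10. P4ha3, named after its values were seen, changed by -0.82 ± 0.23 (0.0147) and -0.80 ± 0.23 (0.0186). Its calls were lost without reconstituted DMSO replicate 2 or suspension replicate 1 (0.052 and 0.0607), and without AhR-null DMSO replicate 3 or suspension replicate 1 or 2 (0.0879, 0.0608 and 0.0932).

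Plod2, a lysyl hydroxylase of collagen telopeptides named after its values were seen, rose by 0.58 ± 0.15 (0.00959; 0.055 without reconstituted DMSO replicate 3) and 0.57 ± 0.15 (0.0111). The members that fell included Creb3l1, a membrane-bound transcription factor that drives Col1a1 in mouse bone (-0.94 ± 0.16 in the reconstituted and -0.66 ± 0.16 in the AhR-null line), and Sec23a of the COPII coat that exports procollagen (-0.58 ± 0.11 and -0.45 ± 0.11). Fkbp14, a prolyl isomerase, fell by 0.81 and 0.98, and P3h4, a partner of lysyl hydroxylase, fell by 0.89 and 0.90 on the log2 scale. The collagen chaperone Serpinh1 stood at -0.24 ± 0.11 in the reconstituted line (adjusted p = 0.116; 0.00684 with the block).

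Of 7 tested genes of procollagen processing and cross-linking, 1 rose and 2 fell in the reconstituted line and 1 rose and 1 fell in the AhR-null line. With the block 1 rose and 5 fell in each (21.2% and 27.4% of all genes, and 21.1% and 26%). Pcolce2, an enhancer of the procollagen C-proteinase, rose 1.81-fold (0.86 ± 0.16, adjusted p = 0.00127) and 1.75-fold (0.81 ± 0.16, 0.00214). Tgm2, a cross-linking transglutaminase, fell 1.61-fold (-0.68 ± 0.11, 0.000361) and 1.52-fold (-0.61 ± 0.11, 0.00104). Loxl1, a lysyl oxidase, fell in the reconstituted line (-0.39 ± 0.13, 0.0411), a call lost without any 1 of DMSO replicates 1 and 2 and suspension replicates 2 and 3 (adjusted p up to 0.143).

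The 19 tested matrix partners split as well: 2 rose and 4 fell in the reconstituted line and 2 rose and 3 fell in the AhR-null line, and with the block 3 rose and 8 fell (21.2% and 27.4% of all genes), and 2 rose and 6 fell (21.1% and 26%). Nid1, the nidogen that links laminin to type IV collagen, rose by 0.71 ± 0.09 (adjusted p = 6.2e-05) in the reconstituted and by 0.29 ± 0.09 (0.0383) in the AhR-null line, where the call was lost without any 1 of DMSO replicates 1, 2 and 3 and suspension replicates 2 and 3 (0.0657 to 0.133). The difference between the lines did not pass (0.42 ± 0.13, adjusted p = 1). Among the small proteoglycans that bind fibrils, Dcn rose (0.48 ± 0.09 and 0.36 ± 0.09) while Bgn (-0.69 ± 0.10 and -0.42 ± 0.10) and Fmod (-0.84 ± 0.16 and -0.64 ± 0.16) fell. Tnc, a matrix glycoprotein, fell by 0.53 in the reconstituted and by 0.51 in the AhR-null line (0.0141 and 0.0185), with calls lost without reconstituted DMSO replicate 2 or suspension replicate 3 (0.0548 and 0.0756) and without AhR-null DMSO replicate 3 or suspension replicate 1 or 2 (0.0612, 0.0697 and 0.0815).

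Of the 7 tested receptors and uptake genes, Pepd, a dipeptidase that recycles proline from collagen fragments, rose in both lines (0.57 ± 0.19, adjusted p = 0.0344, and 0.69 ± 0.19, 0.0138). That call was lost without any 1 of reconstituted DMSO replicates 1, 2 and 3 and suspension replicates 2 and 3 (0.0676 to 0.139), and without AhR-null DMSO replicate 1 or 2 or suspension replicate 3 (0.0537 to 0.0739). Itga11, a subunit of a fibrillar collagen receptor, fell in the reconstituted line (-0.61 ± 0.17, 0.0157; 0.0727 without DMSO replicate 1 and 0.0937 without suspension replicate 3). In the AhR-null line it stood at -0.44 ± 0.17 (0.0799; 0.0122 with the block, which called 1 higher and 1 lower there).

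No gene of the 4 lists was called for YH439 in either line, with or without the block. Between the lines Dcn was lower in the reconstituted line in every treatment, by -0.81 ± 0.09 with DMSO (adjusted p = 0.000186), -0.77 ± 0.09 with YH439 (0.000134) and -0.68 ± 0.09 in suspension (0.000529). Its arrays ran from 10.35 to 10.60 with DMSO in the reconstituted and from 11.29 to 11.36 in the AhR-null line. Bgn was lower with YH439 (-0.60 ± 0.10, 0.00455) and in suspension (-0.56 ± 0.10, 0.00863; 0.0578 without AhR-null replicate 1 and 0.054 without reconstituted replicate 3).

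The remaining calls between the lines were each lost when any 1 of several arrays was left out, with the direction kept. Thbs2, a matricellular protein, was lower with YH439 (-0.74 ± 0.17, 0.0418), a call lost without any 1 of the 6 arrays (0.0646 to 0.191). Creb3l1 was higher with YH439 (0.78 ± 0.16, 0.0209; 0.0816 to 0.114 without AhR-null replicate 1 or 2 or reconstituted replicate 2 or 3). Nid1 was higher in suspension (0.45 ± 0.09, 0.0229; 0.065 to 0.124 without AhR-null replicate 1 or any 1 reconstituted replicate).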

How the data were processed

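Per the labels' protocols, 500 ng of total RNA per sample was made into labelled cRNA, and per the submitters' processing notes BeadStudio was used, with no version named. The deposited non-normalized table gives each probe's bead intensity on each array. It also gives the authors' detection p-value. The values in the series matrix are a second, processed intensity deposited by the authors, linear, not centred, with a floor and column medians of 20 and rank correlations of at least 0.999 with its arrays above the floor. Its scaling stays unknown, and it served as an alternative. The array gene names came from the platform annotation, with symbols checked against RefSeq (GRCm38.p6, 0 changed): 34885 probes name 1 gene, 18 several and 10378 none.

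limma 3.58.1 in R 4.3.3 corrected the intensity by normexp with negative controls derived from the detection p-values (neqc, offset 16), normalized by quantiles and took log2. The filter left 22203 of 45281 probes, those detected (p under 0.05) on 3 or more arrays. Each gene was represented by its kept probe of highest mean. Of the 11149 genes, 4775 had several kept probes. Group means of all 18 arrays were fitted (lmFit, then eBayes, with 12 residual degrees of freedom), with two-sided tests and Benjamini-Hochberg adjustment over 11149 genes at 0.05. Values after ± are standard errors. Intervals are 95%. The fit was also run on simulated data with independent noise on each array. Those data held no deviations shared by replicate number, so they cannot show how such deviations affect the fit. The number of arrays and the signal over background limit precision.

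The labels give same replicate numbers in all groups. Deviations from the group mean of same-numbered arrays within a line correlated at 0.173 to 0.862 (median 0.55, 18 pairs). Those of differently numbered arrays within a line correlated at -0.807 to 0.683 (36 pairs). AhR-null replicates 1 and 2 deviated alike: DMSO replicate 1 gave 0.63 with YH439 replicate 1 and 0.673 with YH439 replicate 2. Whether the number marks shared cultures is thus not shown. A fit with line by replicate as a block is given where it changes a call. No 2 arrays held identical values.

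All collagen genes were accounted for, with array values for those called and for those that split by replicate, and up to 4 called members of each list per comparison were named. Genes named only from the blocked fit or from the fit without the dimmest arrays were chosen after their values were seen. The members and lists were chosen with earlier results of these data known. Promoter windows were read from RefSeq.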

Additional observations from a re-analysis of the deposited data

How the results depend on the processing

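Of the 14 collagen calls, 5 kept their direction and side of the threshold under all alternatives, none reversed, and 33 of 267 values lost the call. The 5 were Col4a1, Col4a2, Col18a1 and Col8a2 in suspension in the reconstituted line and Col8a2 in suspension in the AhR-null line. Fitting only the groups compared ended the AhR-null suspension calls of Col4a1 (adjusted p = 0.0569), Col4a2 (0.0597) and Col18a1 (0.0739), and the YH439 line call of Col15a1 (0.0566). The count for suspension in the reconstituted line, 5, became 13 with the replicate block, 8 with the mean of kept probes, 10 with only the groups compared, 13 when the 6 dimmest arrays were left out and, in fits chosen after seeing the data, 13 with the block without those arrays and 12, 10 and 10 with the block without pair 1, 2 or 3. For suspension in the AhR-null line, 6 became 11 with the block, 1 with only the groups compared and 10 with the block without pair 2. Between the lines with DMSO, 0 became 1 with the authors' processed values and 10 without the dimmest arrays. With YH439, 2 became 1 with median scaling, 0 with only the groups compared and 8 when the dimmest arrays were left out, and in suspension 1 became 4, with the authors' processed values, 0 and 10.

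Leaving out 1 array at a time gave 4 to 6 collagens for suspension in the reconstituted line, 4 to 7 in the AhR-null line, 0 to 0 between the lines with DMSO, 1 to 2 with YH439 and 0 to 2 in suspension, and 0 to 0 for YH439 in each line and for both differences of responses. An array left alone with 1 other was assumed to vary like the other groups. Between the lines, same-numbered arrays did not deviate together (median correlation -0.397, 27 pairs), and the replicate block there moved the calls over all genes from 61 to 69, 161 to 170 and 199 to 217. With the block within lines they moved from 2689 to 5421 and 2524 to 5250 in suspension, from 15 to 93 and 0 to 2 with YH439, and from 3 to 18 and 1 to 19 for the differences of responses.

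Over all genes, the 61, 161 and 199 calls between the lines became 130, 239 and 429 with the authors' values, 7, 40 and 18 with only the groups compared, and 2712, 2771 and 2851 when the dimmest arrays were left out, with 115 in suspension by median scaling. The suspension counts became 4292 and 4135 without the dimmest arrays, and that of the AhR-null line was 861 where its groups were fitted alone. YH439 in the reconstituted line became 39 with the authors' values, 25 with the mean of kept probes and 32 without the dimmest arrays. The split of higher to lower suspension calls in the reconstituted line, 1194 to 1495, was 1684 to 1281 with the authors' values and 918 to 1558 with median scaling. Of the pathway genes, Mia3, an export receptor called higher in suspension in the AhR-null line (0.29), stood at -0.02 with the mean of kept probes, the 1 reversal among 888 values. The mean of kept probes also ended the suspension calls of Dcn (0.0553 and 0.513). Without a filter Col5a2, detected on no array, was called in suspension in the reconstituted line. The normexp fit by maximum likelihood was made on all probes and did not use the detection p-values.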
